A study of Homo sapiens with 6 samples.

Results

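The endothelin genes code for a small peptide hormone system, and its 7 members examined here were the ligands EDN1, EDN2 and EDN3, the receptors EDNRA and EDNRB, and the converting enzymes ECE1 and ECE2. They were found by gene symbol, and all 7 were among the 58735 genes of the count table. The family was chosen by results of this same comparison that were already known, EDN3 having been among the genes with a large difference between knockdown and control, and the remaining members follow from the family name. The members' differences are therefore given as a description. Where a member is said to pass or not to pass the threshold used for all genes, this states its place in that fit and supports nothing.

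Endothelins are made as long precursors. Furin-like proprotein convertases release an inactive big endothelin, and the membrane metalloproteases ECE1 and ECE2 cut this to the short active peptide. The peptide acts on the G protein-coupled receptors EDNRA, which is best known for contraction of vascular smooth muscle, and EDNRB, which clears endothelin and is needed, together with EDN3, for the migration of enteric neural crest cells into the gut. Endothelin-1 has also been studied as a growth signal in colon cancer.

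RNA was sequenced from SW480 cells, an established line from a human colorectal adenocarcinoma, in 3 libraries with stable shRNA knockdown of CNOT7 and 3 control libraries. CNOT7 is a deadenylase subunit of the CCR4-NOT complex, which shortens the poly(A) tails of mRNAs, and the comparison asks which transcripts differ when it is depleted. According to the labels both groups are the same cell line and neither received a treatment, and per the study's methods the knockdown vector was lentiviral and also carries copGFP and puromycin resistance. The study's text names HCT116 for the sequencing where the labels name SW480, and the sources do not say which hairpin a knockdown library carried, what the control hairpin was, or whether the cells were a pool or a single clone. Nothing states that the 3 libraries of a group came from separate cultures, so the p-values measure the spread between these libraries, which may be technical. In bulk RNA, fewer cells that express a gene and less of its RNA per cell cannot be told apart.

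The libraries held 23788451 to 29104872 counts, and the mitochondrially encoded genes took 6.36% to 7.40% of them. The targeted gene CNOT7 had 4346, 4445 and 4405 counts in the control libraries and 1222, 1303 and 1150 in the knockdown libraries. After scaling this was 179 ± 11.3 CPM (counts scaled to library size, mean ± SD, n = 3) in control and 43.1 ± 4.31 in knockdown, a log2 fold change of -2.05 (SE 0.073, edgeR adjusted p = 2.64e-12), and the groups did not overlap. Across the 17574 genes with enough counts to be tested, 4424 (25.2%) passed an adjusted p of 0.05, with 2329 (13.3%) higher and 2095 (11.9%) lower in knockdown. The median log2 fold change over all tested genes was 0.0039.

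The 3 ligands are close relatives, so the coding bases of their mature peptides are shown for how far reads from one could be told from those of another. Each stretch of 63 bases codes for the 21 residues of the mature peptide and lies in exon 2 of its gene (GRCh38, GENCODE 29). EDN1 is at chr6:12292433-12292495 on the plus strand, EDN2 at chr1:41484061-41484123 on the minus strand and EDN3 at chr20:59301646-59301708 on the plus strand. The sequences run 5′ to 3′, and capitals mark the 19 positions that were not the same in all 3.
EDN1: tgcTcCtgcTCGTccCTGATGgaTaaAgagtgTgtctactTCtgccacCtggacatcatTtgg
EDN2: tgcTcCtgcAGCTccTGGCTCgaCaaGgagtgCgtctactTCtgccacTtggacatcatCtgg
EDN3: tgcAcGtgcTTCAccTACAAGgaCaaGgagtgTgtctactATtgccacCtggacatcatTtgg

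The capitals were densest in the first part of the stretch, and its tail held few of them. EDN1 and EDN2 differed at 12 of the 63 bases and 2 of the 21 residues. EDN3 differed from EDN1 at 13 bases and from EDN2 at 15, and at 6 residues from either. Outside this short stretch the genes are longer and separate, since the exons of the 3 ligand genes held 1639 to 2733 bases and none was shared with an annotated gene at the same place.

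EDN3 had the larger level after knockdown and EDN1 the smaller, while EDN2 was lower by less. EDN3 codes for endothelin-3, the ligand of EDNRB in the enteric nervous system (ENSG00000124205, GRCh38 chr20:59300427-59325992, plus strand). It had 117, 108 and 100 counts in the control libraries and 578, 511 and 530 in the knockdown libraries. Every knockdown library was above every control library, and within each group the counts lay close together. The level was 4.40 ± 0.354 CPM in control and 18.9 ± 1.40 in knockdown (SD, n = 3), with a log2 fold change of 2.11 (SE 0.112), or 4.31-fold higher. Over 13 other ways of fitting the counts, leaving out each library among them, this log2 fold change ran from 2.04 to 2.15.

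EDN1 codes for endothelin-1, the main vasoconstrictor of the family (ENSG00000078401, chr6:12290363-12297194, plus strand). Its counts were 96, 82 and 86 in control and 21, 41 and 20 in knockdown. The groups did not overlap, but knockdown replicate 2 held as many counts as the other two knockdown libraries together. The exact Poisson 95% interval of that library, 29.4 to 55.6 counts, met those of replicate 1 (13.0 to 32.1) and replicate 3 (12.2 to 30.9) only at its lower end, and such intervals cover counting error alone. EDN1 stood at 3.56 ± 0.156 CPM in control and 0.967 ± 0.450 in knockdown (SD, n = 3), with a log2 fold change of -1.89 (SE 0.251), or 3.70-fold lower. Without knockdown replicate 2 the log2 fold change was -2.33, and over all 13 alternatives it ran from -2.33 to -1.68. The same library also had the highest CNOT7 level of the knockdown group, 47.2 CPM against 43.4 and 38.6, and the part of this in the EDN1 spread was not tested.

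EDN2 codes for endothelin-2, which is made in the intestinal epithelium among other tissues (ENSG00000127129, chr1:41478775-41484673, minus strand). It was counted 52, 48 and 56 times in control and 41, 29 and 49 times in knockdown. The raw counts of the groups overlapped, and after scaling for depth they did not: the levels were 2.02, 2.06 and 2.23 CPM in control and 1.45, 1.05 and 1.65 in knockdown. The log2 fold change was -0.60 (SE 0.226), which did not pass the threshold. It passed when knockdown replicate 3 was left out (-0.75), with offsets that remove a trend with abundance (-0.76) and with a term for the replicate number (-0.61). The lowest size, -0.44, was found without knockdown replicate 2.

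**Figure D1:**
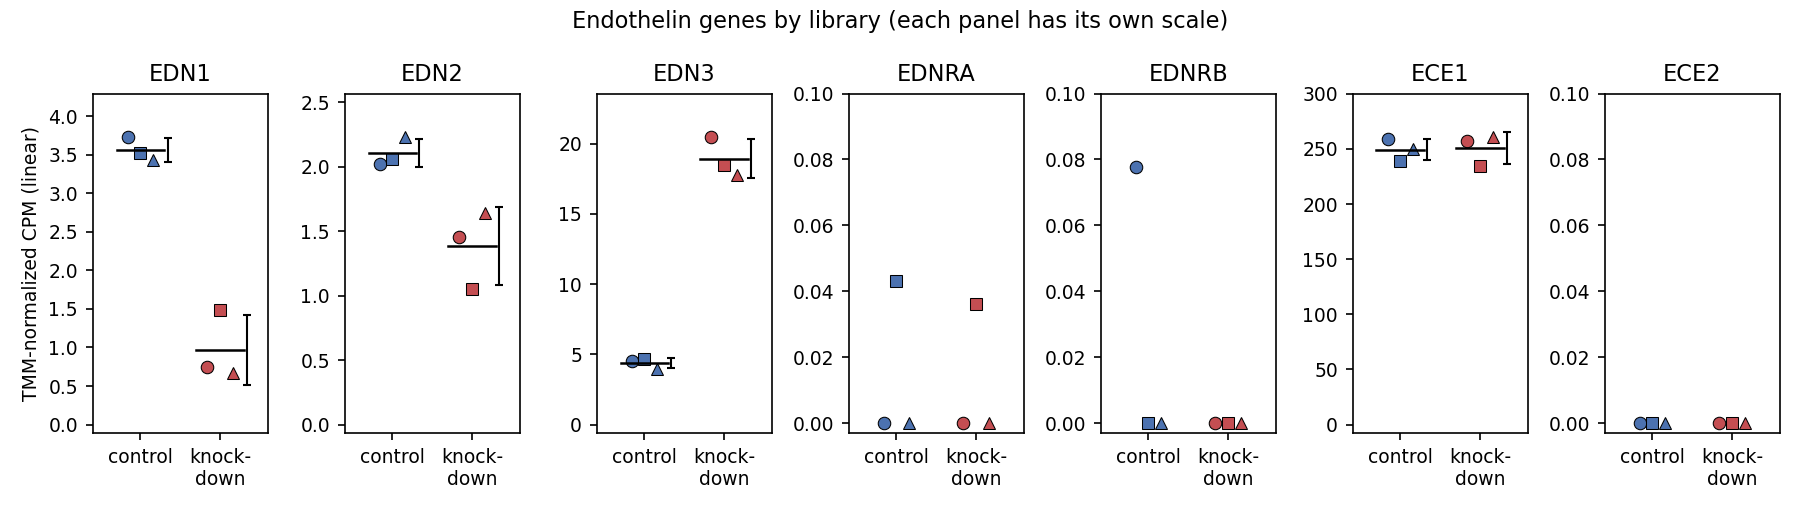
TMM-normalized CPM of the 7 endothelin genes in each library, on a linear axis with its own range per panel. Blue symbols are control and red symbols knockdown libraries (circle replicate 1, square replicate 2, triangle replicate 3), and lines with bars are the mean ± SD of 3 libraries for the 4 tested genes. EDN3 was higher and EDN1 lower in every knockdown library, ECE1 overlapped between the groups, and EDNRA, EDNRB and ECE2 had between 0 and 2 counts in any library.

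The receptors for these ligands were almost without reads. EDNRA (ENSG00000151617, chr4:147480917-147544954, plus strand) had 1 count in control replicate 2, 1 in knockdown replicate 2 and 0 in the other 4 libraries. EDNRB (ENSG00000136160, chr13:77895481-77975529, minus strand) had 2 counts in control replicate 1 and 0 in the other 5. Over all 6 libraries together each receptor had 2 counts, which an exact Poisson 95% interval places between 0.00152 and 0.0453 CPM. A floor of 3 counts in 1 library was set, or 0.101 to 0.129 CPM at these depths. Both groups lay at or under that floor, so no fold change is given. The exact Poisson 95% interval for a count of 0 in 1 library reaches somewhat higher, to 3.69 counts. Neither receptor passed the filter on low counts.

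Reads over the receptor loci from other annotated genes were also few. RNF219-AS1, which is read from the other strand and covers 1.43% of the exonic bases of EDNRB, had 1 to 9 counts per library. The kit is not said to keep strand and the strand setting of the counting is not given, so reads from these shared bases cannot be assigned to one strand. AL139002.1 and RN7SL810P, which lie over EDNRB, and AC093908.1 and GTF2F2P1, which lie over EDNRA, had 0 counts in all 6 libraries.

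Of the converting enzymes ECE1 was counted in every library and ECE2 in none, and the value of ECE2 is uncertain for a reason given below. ECE1 (ENSG00000117298, chr1:21217247-21345572, minus strand) had 6658, 5569 and 6263 counts in control and 7247, 6475 and 7778 in knockdown. The levels overlapped fully, at 259, 239 and 249.9 CPM in control and 257, 235 and 261 in knockdown. The mean was 249.5 ± 9.83 CPM in control and 251 ± 14.3 in knockdown (SD, n = 3), with a log2 fold change of 0.01 (SE 0.056) that did not pass the threshold. Its sign turned in 4 of the 13 alternatives, with values from -0.03 to 0.07, so no direction is given. On the other strand AL031728.1 covers 3.27% of the exonic bases of ECE1 and had 2 to 13 counts, and AL031005.1 lies within the gene body with 1 to 4 counts.

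ECE2 (ENSG00000145194, chr3:184276011-184293031, plus strand) had 0 counts in all 6 libraries, with the same floor of 0.101 to 0.129 CPM per library. However, 62.7% of its exonic bases are shared on the same strand with the readthrough gene EEF1AKMT4-ECE2, which also had 0 counts in every library. Reads in shared bases can be left out when each read must belong to 1 gene, and the setting used is not given. The value of ECE2 is therefore uncertain and its absence from the cells is not shown.

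Of the 7 members, 4 had enough counts to be tested and 3 did not. Of these 4, EDN3 passed the threshold as higher and EDN1 as lower, 2 calls where 25.2% of all tested genes were called (13.3% higher and 11.9% lower). The groups did not overlap in 3 of the 4, where this held for 38.8% of all tested genes. The median log2 fold change of the 4 was -0.30. Because the family was chosen with this comparison known, nothing is read from these counts.

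Levels of different genes were compared per length, as TPM (length-scaled transcript shares) from the counts and the exon length of each gene. In the control libraries EDN1 stood at 6.30 ± 0.334 TPM, EDN3 at 5.78 ± 0.505 and EDN2 at 4.62 ± 0.206 (SD, n = 3). EDN1 and EDN3 overlapped between libraries in control, and EDN2 lay below both. In the knockdown libraries EDN3 stood at 25.7 ± 1.98 TPM, EDN2 at 3.13 ± 0.728 and EDN1 at 1.76 ± 0.788, and here EDN2 and EDN1 overlapped. ECE1 was above every ligand, at 122 ± 5.53 TPM in control and 127 ± 9.03 in knockdown.

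Among all tested genes, EDN1 had a TPM above 36.4% of them in control and above 15.0% in knockdown. EDN3 went from above 35.1% to above 64.4%, and EDN2 from above 31.5% to above 23.6%. In control the ligands thus sat in the lower part of the tested genes, and in knockdown EDN3, alone of the 3, sat in the upper part. ECE1 had a higher TPM than 93.0% of the tested genes in control and 93.5% in knockdown.

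As shares of the summed ligand TPM, EDN3 made up 35.2%, 36.2% and 32.4% in the control libraries and 85.7%, 83.2% and 83.0% in the knockdown libraries. EDN1 made up 38.8%, 37.0% and 37.4% of the sum in control and 4.19%, 8.97% and 4.21% in knockdown. EDN2 accounted for 26.1%, 26.8% and 30.2% in control and 10.1%, 7.87% and 12.8% in knockdown. In control the 3 ligands were thus present in similar amounts, and in knockdown EDN3 held most of the ligand transcript in every library. The summed ligand level was 16.7 ± 0.577 TPM in control and 30.6 ± 1.79 in knockdown (SD, n = 3). EDN3 was 0.907, 0.980 and 0.865 times EDN1 in the control libraries and 20.5, 9.27 and 19.7 times EDN1 in the knockdown libraries, and the lower ratio is that of knockdown replicate 2. ECE1 TPM over the summed ligand TPM was 7.32 ± 0.320 in control and 4.16 ± 0.334 in knockdown. Shares of a sum depend on each other, so these values describe the same differences in another form.

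**Figure D2:**
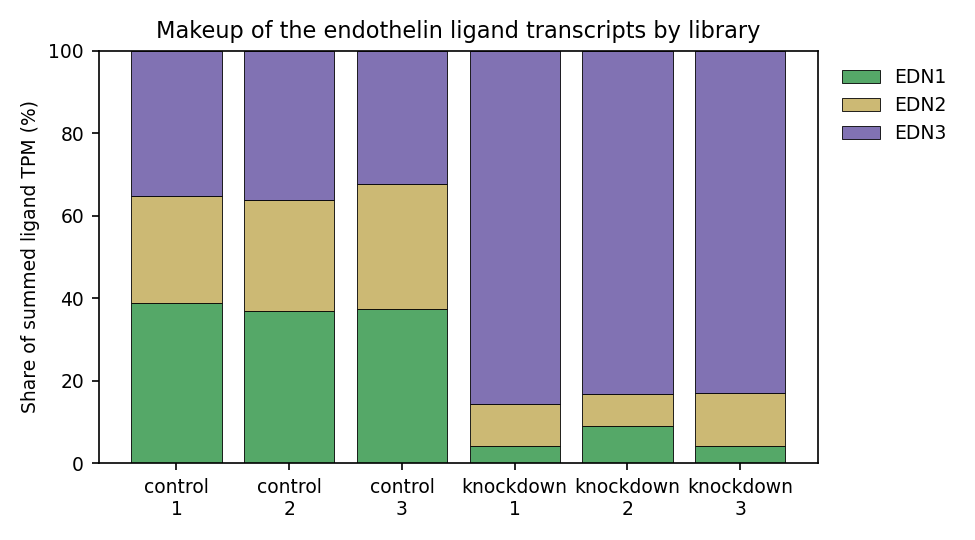
Stacked bars of the share of each ligand, in percent, in the summed TPM of EDN1, EDN2 and EDN3 for each of the 6 libraries. The EDN3 segment is 32.4% to 36.2% of the bar in the control libraries and 83.0% to 85.7% in the knockdown libraries.

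Endothelins are also made by endothelial cells and other cells of the tissue around a tumour, so the marker genes of such cells were read in the same libraries. Epithelial keratins were high, with KRT8 at 2750 CPM in control and 2481 in knockdown, KRT18 at 2025 and 1978, and KRT19 at 720 and 637, and EPCAM was at 212 and 220. CDX1, KRT20 and LGR5 had 5 to 7 counts in all libraries together. Of 8 endothelial markers 3 were tested and 0 passed in edgeR or DESeq2, with 1 (edgeR) and 0 (DESeq2) at an unadjusted p under 0.05 and a summed level of 3.002 to 3.156 TPM in control and 3.12 to 3.93 in knockdown. Of 8 melanocyte and Schwann cell markers 3 were tested and 0 passed in edgeR or DESeq2, with 0 at an unadjusted p under 0.05 in either, 4.88 to 6.07 TPM in control and 7.04 to 7.53 in knockdown and TYR at 0 counts. Of 9 fibroblast and smooth muscle markers 5 were tested and DES passed as higher, with 15.2 to 16.8 TPM in control and 21.20 to 25.02 in knockdown and COL3A1 and DCN at 0 counts. The calls of these lists stand beside 25.2% of all tested genes called and 13.3% called higher. Among the fits without 1 library or without the filter, there was 1 endothelial call without knockdown replicate 3. There was 1 melanocyte call without knockdown replicate 3, control replicate 1 or knockdown replicate 2 and with no filter on low counts, and no filter also gave 2 fibroblast calls. The melanocyte and fibroblast sums were higher in every knockdown library, and their part in the EDN3 level was not tested. In the fibroblast sum DES had the largest difference, from a mean of 7.25 TPM in control to 13.0 in knockdown. COL1A1, ACTA2 and PDGFRB were higher and MYH11 lower without passing. COL1A2 and LUM, at 17 and 2 counts in all libraries together, were lower and not tested.

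The enzymes that process and clear endothelins before and after ECE1 were read next. Of 13 such genes 6 were tested, 1 rose and 4 fell in knockdown, beside 13.3% of all tested genes called higher and 11.9% called lower. The median log2 fold change was -0.21 against 0.0039 over all tested genes. PCSK6, a proprotein convertase of the furin family, had 925, 784 and 889 counts in control and 580, 530 and 706 in knockdown, with no overlap. Its level fell from 35.06 ± 1.198 to 21.2 ± 2.31 CPM (SD, n = 3), with a log2 fold change of -0.73 (SE 0.084, edgeR adjusted p = 6.86e-06). The other convertases fell by less. PCSK7 changed by -0.27 (SE 0.082, edgeR adjusted p = 0.0214), FURIN itself by -0.21 (SE 0.063, edgeR adjusted p = 0.0195) and PCSK5 by -0.21 (SE 0.072, edgeR adjusted p = 0.0456).

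ECEL1, a relative of ECE1 that is known from the nervous system and is not known to cut endothelin, had 94, 119 and 86 counts in control and 289, 274 and 279 in knockdown. It rose from 4.07 ± 0.914 to 9.85 ± 0.448 CPM (SD, n = 3), and its log2 fold change was 1.28 (SE 0.143, edgeR adjusted p = 4.47e-06). CTSA, a lysosomal carboxypeptidase that degrades endothelin-1, had a log2 fold change of -0.11 and did not pass (edgeR adjusted p = 0.181). The other 7 genes, among them the endothelin-degrading neprilysin MME and the chymase CMA1, had 4 to 31 counts in all libraries together and were not tested. The 5 calls of this list became 2, those of ECEL1 and PCSK6, without control replicate 1. They became 3 without control replicate 3, without knockdown replicate 3, with upper quartile scaling and with abundance-trend offsets. Without control replicate 1 the log2 fold changes of PCSK7, FURIN and PCSK5 were -0.19, -0.19 and -0.23 (edgeR adjusted p = 0.148, 0.0694 and 0.0584). PCSK7 was also not called without knockdown replicate 3 (-0.24), FURIN without control replicate 3 (-0.19) or knockdown replicate 2 (-0.16), and PCSK5 without any 1 library other than knockdown replicate 2, with values from -0.23 to -0.15 where it was lost.

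Genes that carry the signal of endothelin receptors inside the cell moved in both directions. Of 30 genes 29 were tested, 7 rose and 4 fell, beside 13.3% and 11.9% of all tested genes, and their median log2 fold change was 0.01. PLCB1, a phospholipase C that receptors activate through Gq proteins, had 20, 8 and 21 counts in control and 50, 43 and 58 in knockdown. Its log2 fold change was 1.41 (SE 0.305, edgeR adjusted p = 0.00246). PLCB1 passed the filter on low counts through the knockdown libraries, where it was high, so its call is a description. ITPR1, an inositol trisphosphate receptor that releases stored calcium, rose from 10.5 ± 1.64 to 17.5 ± 0.883 CPM (log2 fold change 0.74, SE 0.110, edgeR adjusted p = 9.04e-05). The inhibitory G protein subunit GNAI1 rose by 0.49 on the log2 scale (SE 0.082, edgeR adjusted p = 2.77e-04), and the receptor kinase GRK3 by 0.44 (SE 0.072, edgeR adjusted p = 2.12e-04). The other 3 that rose were ARRB2 (0.29, SE 0.060, edgeR adjusted p = 0.00190), PRKCD (0.25, SE 0.058, edgeR adjusted p = 0.00361) and GRK2 (0.17, SE 0.060, edgeR adjusted p = 0.0414). Their calls were not followed gene by gene over the alternatives.

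The 4 genes that fell were PLCB2, GNA11, ITPR2 and ARHGEF11. PLCB2 had 66, 51 and 46 counts in control and 47, 28 and 35 in knockdown, so that raw counts but not CPM overlapped, and its log2 fold change was -0.77 (SE 0.242, edgeR adjusted p = 0.0262). GNA11, which like GNAQ couples receptors to phospholipase C, changed by -0.29 (SE 0.078, edgeR adjusted p = 0.0115), while GNAQ had a value of 0.13 and did not pass (edgeR adjusted p = 0.250). ITPR2 changed by -0.22 (SE 0.063, edgeR adjusted p = 0.0140) and the guanine nucleotide exchange factor ARHGEF11 by -0.21 (SE 0.061, edgeR adjusted p = 0.0182). PLCB2 was not called without control replicate 1 (-0.65), knockdown replicate 2 (-0.63) or knockdown replicate 3 (-0.71). Without control replicate 3 the 11 calls of the list became 7, and GNA11 (-0.27), ITPR2 (-0.22) and ARHGEF11 (-0.20) were among those lost. Without knockdown replicate 3 the calls became 8, with ITPR2 (-0.19) among those lost. ARHGEF11 was also lost without control replicate 1 (-0.19). With both receptors at or below 2 counts, these genes are listed for the pathway and their values say nothing of endothelin signalling.

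**Figure D3:**
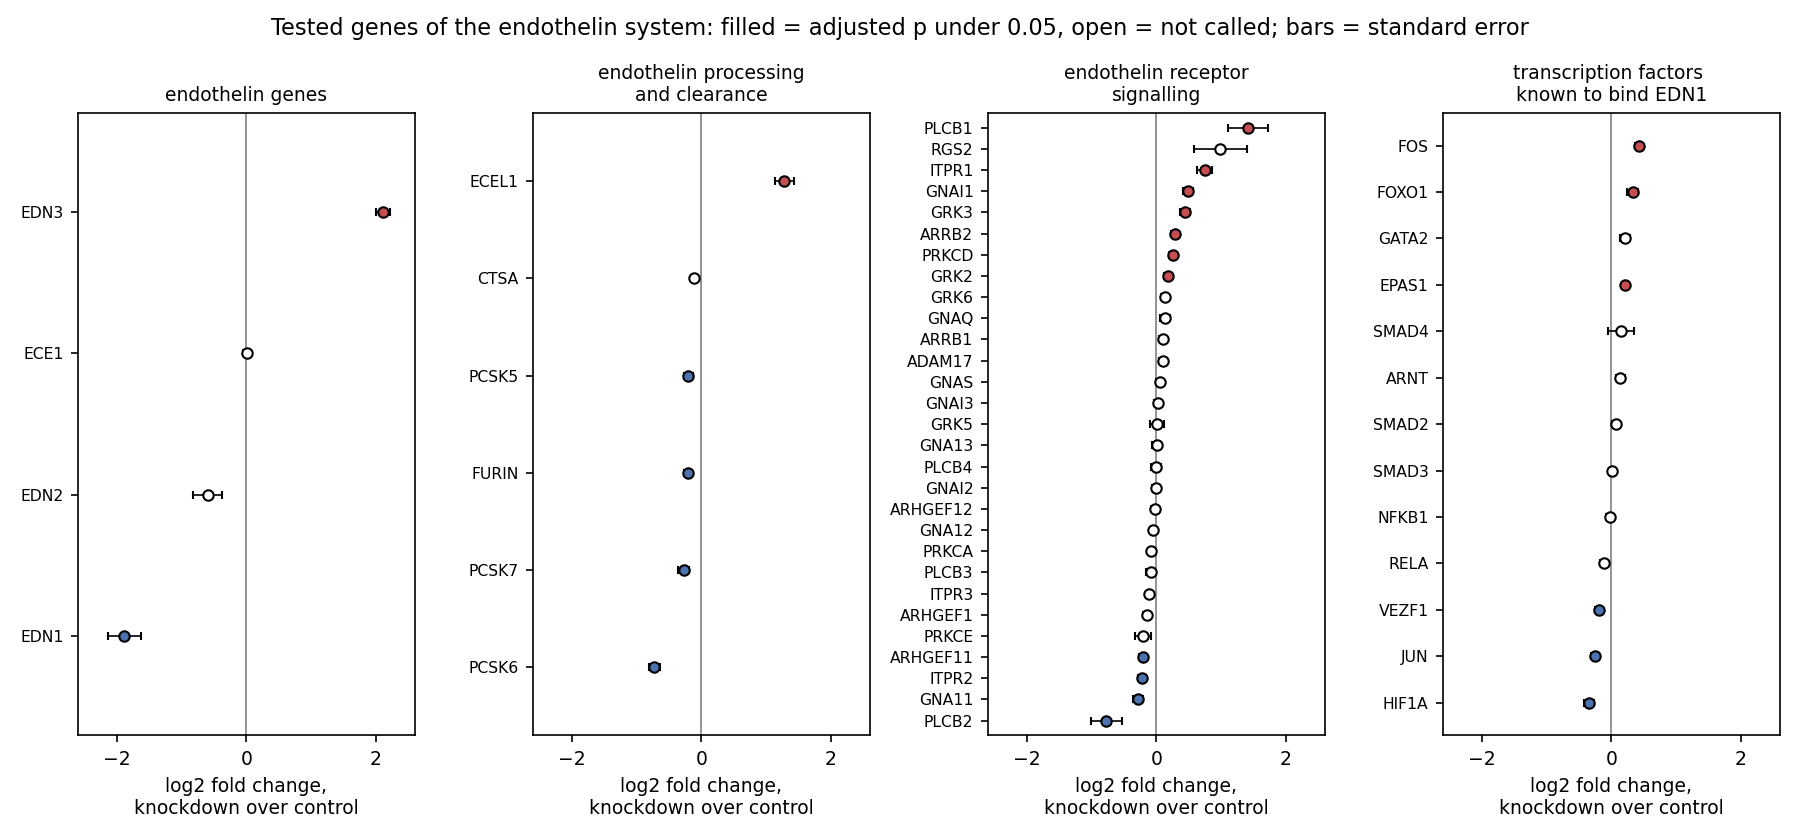
Log2 fold change of knockdown over control with its standard error for the 4 tested endothelin genes and the tested genes of 3 related lists. Filled symbols passed an edgeR adjusted p of 0.05 (red higher, blue lower) and open symbols did not. EDN3 and EDN1 lie at 2.11 and -1.89, while in the lists the values run from -0.77 for PLCB2 to 1.41 for PLCB1.

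EDN1 is regulated mainly at transcription in the cells where it has been studied, so the region before its start is shown with the words that some of its known regulators bind. It is the 250 bases before the RefSeq start, chr6:12290111-12290360 (GRCh38.p14, plus strand), 5′ to 3′, and of the 3 RefSeq starts of the gene it belongs to the one nearest the start in the count table. Capitals mark, in order, a GATA word, a hypoxia factor word, an AP-1 variant and the TATA box.
EDN1 upstream: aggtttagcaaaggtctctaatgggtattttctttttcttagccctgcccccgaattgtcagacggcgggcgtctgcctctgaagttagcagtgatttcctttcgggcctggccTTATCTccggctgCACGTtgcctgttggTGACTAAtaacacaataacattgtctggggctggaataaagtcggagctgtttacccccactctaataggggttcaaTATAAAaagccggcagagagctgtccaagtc

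The TATA box (TATAAA) began 31 bases before the start, at -31, and the same letters occur on either strand in 11.5% of the 35116 RefSeq promoter windows searched. The GATA word AGATAA was found on the minus strand with its first base in the window at -136 (10.3% of windows), the hypoxia factor core ACGTG on the minus strand at -123 (21.4%), and the AP-1 variant TGACTAA at -108 (1.9%). None of these 4 overlapped another. The AP-1 consensus TGACTCA (4.95% of windows) and the TEAD word GGAATG (14.0%) were not in the EDN1 window, and GGAATG was in the EDN2 window at -175. A window was given for 5 of the 7 members, and EDN3 and ECE2 had no entry. A match of letters is a description and not a binding site.

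All 13 transcription factors on a list of those known to bind EDN1 were tested, and 3 rose, 3 fell and 7 did not pass, with a median log2 fold change of 0.07. These 6 of 13 stand beside 25.2% of all tested genes. FOS, an AP-1 subunit, rose by 0.42 on the log2 scale (SE 0.061, edgeR adjusted p = 7.43e-05), and JUN, its partner, changed by -0.26 (SE 0.062, edgeR adjusted p = 0.00490). HIF1A, the oxygen-regulated subunit of hypoxia-inducible factor, had 5280, 5672 and 5418 counts in control and 4719, 5336 and 4822 in knockdown and fell from 222 ± 19.8 to 174 ± 16.8 CPM (log2 fold change -0.35, SE 0.072, edgeR adjusted p = 0.00177). EPAS1, the related HIF-2 subunit, rose by 0.20 (SE 0.047, edgeR adjusted p = 0.00381).

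The other 2 that passed were FOXO1, which rose by 0.33 (SE 0.085, edgeR adjusted p = 0.00847), and VEZF1, an endothelial zinc finger factor, which changed by -0.19 (SE 0.058, edgeR adjusted p = 0.0223). FOXO1 was not called without control replicate 3 (0.29), and VEZF1 was not called without control replicate 2 (-0.17), control replicate 3 (-0.19), knockdown replicate 1 (-0.20) or knockdown replicate 3 (-0.16). GATA2 had a log2 fold change of 0.21 and did not pass (edgeR adjusted p = 0.0612). All of these differences were under 0.5 on the log2 scale, and their part in the EDN1 level was not tested. Transcript levels do not show the activity of these factors.

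The neural crest partners of EDN3 and EDNRB had few counts. GDNF and ZEB2 had 0 counts in every library, and SOX10, RET, GFRA1 and PAX3 had 5 to 28 counts in all libraries together. MITF, the melanocyte factor that also has forms in many epithelial cells, was the 1 gene tested of the 9 on this list. It passed as higher, beside 25.2% of all tested genes called and 13.3% called higher. MITF rose from 11.8 ± 0.533 to 14.6 ± 1.18 CPM (log2 fold change 0.31, SE 0.098, edgeR adjusted p = 0.0295). It did not pass in 5 of the 13 alternatives, among them leaving out control replicate 1 (0.27), control replicate 3 (0.31) or knockdown replicate 2 (0.24).

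The genes around each member were compared as well, since position was not used to choose the family. Within 500 kb of a member's body the table held 162 genes and 56 were tested, of which 6 rose and 8 fell. These 14 of 56 stand beside 25.2% of all tested genes. Around EDN3, 27 genes were in the table, 9 were tested and 1 passed. This was ZNF831, a zinc finger gene that ends 41.3 kb before EDN3, with 6, 10 and 4 counts in control and 33, 40 and 28 in knockdown. It rose from 0.274 ± 0.140 to 1.19 ± 0.255 CPM (SD, n = 3), and its log2 fold change was 2.11 (SE 0.392, edgeR adjusted p = 7.18e-04). It passed in all 12 alternatives that could test it, with values from 1.84 to 2.56. Its control libraries stood at 0.234, 0.430 and 0.160 CPM, near the floor of 0.101 to 0.129 CPM. ZNF831 passed the filter on low counts through the knockdown libraries, where it was high. Its call and the range over the alternatives are therefore a description. The other 8 tested neighbours of EDN3 did not pass and lay between -0.32 for TUBB1 and 0.60 for PHACTR3.

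Around EDN1 3 genes were tested and HIVEP1, a zinc finger transcription factor gene 125 kb away, fell from 31.1 ± 3.28 to 21.5 ± 2.09 CPM (log2 fold change -0.53, SE 0.093, edgeR adjusted p = 4.41e-04). Near ECE1 RAP1GAP rose (0.72, SE 0.108, edgeR adjusted p = 9.78e-05) and SH2D5 fell (-0.61, SE 0.164, edgeR adjusted p = 0.0111). Near ECE2, CHRD, the BMP antagonist chordin, rose (0.55, SE 0.144, edgeR adjusted p = 0.00952), as did VWA5B2 (0.66, SE 0.166, edgeR adjusted p = 0.00703). SH2D5 was not called without control replicate 1 (-0.48), and CHRD was not called without control replicate 3 (0.47) or without knockdown replicate 1 (0.43). No neighbour of EDN2, EDNRA or EDNRB passed with a log2 fold change beyond 0.5.

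**Figure D4:**
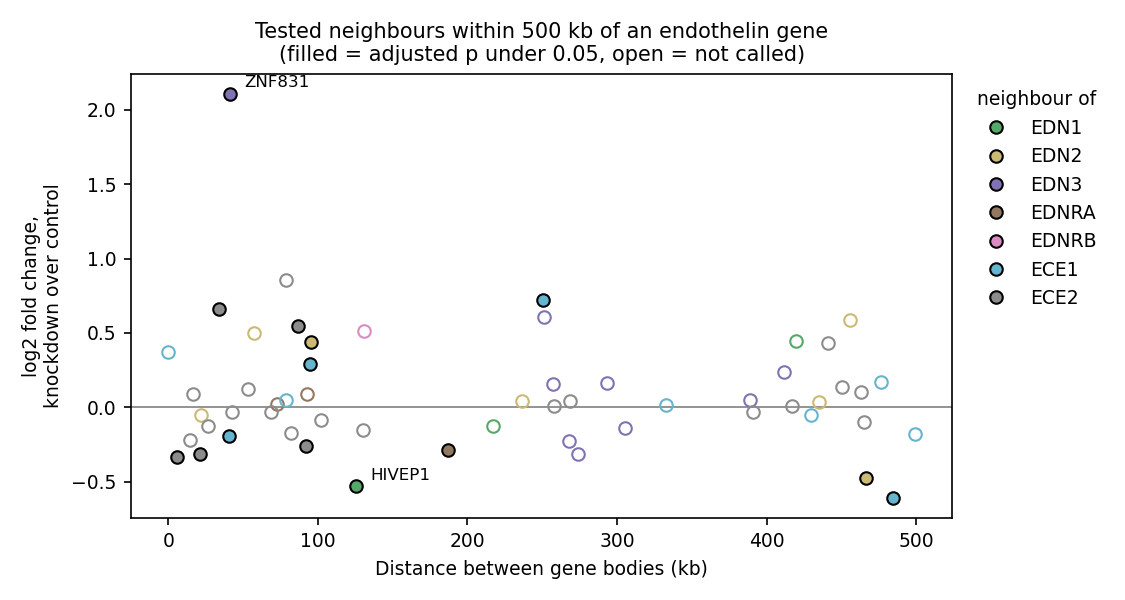
Log2 fold change of knockdown over control of the 56 tested genes within 500 kb of an endothelin gene, against the distance between the gene bodies in kb, coloured by the endothelin gene. Filled symbols passed an edgeR adjusted p of 0.05 and open symbols did not. ZNF831, 41.3 kb from EDN3, lies at 2.11, above every other neighbour, and HIVEP1, 125 kb from EDN1, at -0.53.

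For each tested member the 3 genes with the most similar values over the 6 libraries were found by the root mean square difference of their centred log2 CPM. The nearest to EDN3 were ABCB1, a drug efflux transporter (0.122), PLA2G4D, a cytosolic phospholipase A2 (0.125), and CACNA1E, a calcium channel subunit (0.152). ABCB1 stood at 12.2 ± 0.475 CPM in control and 51.5 ± 2.21 in knockdown. The nearest to EDN1 was CNOT7 itself (0.287), followed by MARCH4, a membrane-bound ubiquitin ligase (0.288), and NPFFR1, a neuropeptide receptor (0.301). For EDN2 they were MBLAC1 (0.0545), RUSC1-AS1 (0.0785) and AC027237.3 (0.0879), and for ECE1 ZMIZ1 (0.0137), RPS18 (0.0144) and TRIM56 (0.0147). The distances were larger for EDN1 than for the other members, and with 2 groups of 3 libraries the likeness mostly reflects the difference between the groups.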

How the data were processed

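The authors deposited one table of raw counts per gene for 6 libraries, with gene positions and lengths. Per the labels, RNA was extracted with TRIzol and libraries were made with a NEBNext Ultra RNA kit. The submitters' processing notes name CASAVA 1.8, fastp, HISAT2 2.0.5, featureCounts 1.5.0-p3, DESeq2 1.20.0 and GRCh38, and the counting options are not given in the sources used here. Gene positions and lengths of the members were identical to GENCODE 29. The labels gave no batch or date.

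Counts were tested in R 4.3.3 with edgeR 4.0.16: filterByExpr left 17574 genes, factors were TMM, and the quasi-likelihood test compared 3 knockdown with 3 control libraries without a replicate term, with Benjamini-Hochberg adjustment over all tested genes and a threshold of 0.05. SE is the log2 fold change over the root of F. Total counts of 23788451 to 29104872 set 3 counts at 0.101 to 0.129 CPM. Pairs of libraries within a group differed by more than sampling noise, so none was a copy. The steps were tested on simulated data.

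The members and lists were chosen with earlier results of these data known. Named genes were the members, CNOT7, at most 4 called genes per direction and list, the 3 nearest profiles per member (prior count 2), genes over a member, and called neighbours with a log2 fold change beyond 0.5. ARRB2, PRKCD, GRK2 and the genes given as not tested or not passing were named after their values were seen. Alternatives were DESeq2 1.42.0, RLE and upper quartile factors, cyclic loess offsets (limma 3.58.1), no filter, a minimum of 10 counts per library, a term for the replicate number, and fits without each library in turn. Some genes of the lists are not reported here.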

Additional observations from a re-analysis of the deposited data

How the results depend on the processing

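CNOT7 (-2.13 to -1.98) kept its direction and stayed past the threshold in all 13 alternatives. As a description of members that were chosen on this comparison, the log2 fold changes ran from 2.04 to 2.15 for EDN3, from -2.33 to -1.68 for EDN1 and from -0.03 to 0.07 for ECE1. EDN2 passed with cyclic loess offsets (-0.76), in the fit with a replicate block (-0.61), and in 1 of the 6 fits that leave out a library, whose values ran from -0.75 to -0.44. The number of genes called lower was 2095, and 1367 to 2219 when 1 library was left out, with the lowest count without control replicate 3. Upper quartile factors gave 64.6% of calls as higher against 52.6%, and moved the median of all genes to 0.0447. Shares of the ligand TPM were identical from FPKM with TMM factors, and leaving out 1 library moved the EDN3 share to between 33.8% and 35.7% in control and between 83.1% and 84.4% in knockdown.

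Replicate numbers were checked for pairing by correlating deviations from the group means. For numbers 1, 2 and 3 the correlations were 0.0228, 0.153 and -0.0153, and not every library correlated best with its own number. Control replicate 1 correlated best with knockdown replicate 3 (0.132). Such correlations cannot show whether libraries shared a day or batch, and the main fit had no replicate term. A fit with a replicate block gave 6508 calls against 4424, with 3306 genes lower, called 24 neighbours against 14, and called 1 endothelial marker against 0. Without 1 library, 10 to 17 neighbours were called. ZNF831 and PLCB1 could not be fitted with at least 10 counts in every library, since they were filtered out. At 2 counts or fewer, depth limits what can be said of the receptors.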

Other observations

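Among 25 genes of other vasoactive peptide systems (adrenomedullin, angiotensin, natriuretic peptides, urotensin, kinins and vasoactive intestinal peptide), 9 were tested and 1 passed, beside 25.2% of all tested genes, with a median log2 fold change of -0.01. BDKRB2, the bradykinin B2 receptor, had 21, 10 and 12 counts in control and 62, 45 and 68 in knockdown, without overlap. It rose from 0.575 ± 0.211 to 2.04 ± 0.355 CPM (SD, n = 3), and its log2 fold change was 1.81 (SE 0.295, edgeR adjusted p = 2.19e-04). The gene passed in all 13 alternatives. KNG1, which codes for the kininogen precursor of its ligand, had 0 counts in every library, and BDKRB1 had 7 counts in all libraries together. Adrenomedullin (ADM) stood at 16.7 ± 1.53 CPM in control and 16.6 ± 0.696 in knockdown, and ADM2 at 16.3 ± 2.29 and 17.2 ± 2.15. Its receptor gene CALCRL had 0 counts. The receptor VIPR1 stood at 20.7 ± 1.03 CPM in control and 22.8 ± 0.992 in knockdown, and the angiotensin-converting enzyme gene ACE at 6.47 ± 0.434 and 5.62 ± 0.136, and neither passed. The count of this list became 2 without control replicate 3, without knockdown replicate 2 or without knockdown replicate 3.

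Of 10 colorectal epithelial markers 7 were tested, 2 rose and 2 fell, beside 13.3% of all tested genes called higher and 11.9% called lower. CDH1, the adhesion protein E-cadherin, rose from 23.6 ± 1.65 to 33.5 ± 1.79 CPM (log2 fold change 0.51, SE 0.079, edgeR adjusted p = 1.55e-04), and VIL1, the brush border protein villin, rose from 19.9 ± 2.01 to 32.7 ± 3.68 CPM (0.72, SE 0.095, edgeR adjusted p = 2.93e-05). KRT8 changed by -0.15 (SE 0.051, edgeR adjusted p = 0.0414) and KRT19 by -0.18 (SE 0.054, edgeR adjusted p = 0.0212). The 4 calls became 2 without control replicate 1, control replicate 3, knockdown replicate 1 or knockdown replicate 2, and with upper quartile factors or cyclic loess offsets.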
